A study of Homo sapiens with 5 samples.

Results

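Long noncoding RNA (lncRNA) genes that stand away from protein-coding genes were examined for ENL and for acylation of histone H3 at lysine 9. A gene was a member if RefSeq (GRCh38.p14) gives it the biotype lncRNA on chromosomes 1 to 22, X or Y and both of its ends lie more than 2 kb from every protein-coding gene end. The choice used the annotation alone and found 14209 of 18303 lncRNA genes, among 38336 lncRNA and protein-coding genes in all. A gene was counted for a peak list when a peak overlapped, by at least 1 bp, a window reaching 1 kb to either side of one of its ends.

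HepG2, a cell line from a human liver cancer, was profiled by CUT&Tag in 5 libraries, 1 for each group, and each library has 1 peak list. In CUT&Tag an antibody brings a transposase to the chromatin it binds, and a peak is a stretch with more tagged fragments than the surrounding background. The groups were wild type ENL and ENL carrying the Y78A substitution, which the series text describes as Flag-tagged protein stably expressed in these cells, and the histone marks H3K9ac (acetylation), H3K9bhb (β-hydroxybutyrylation) and H3K9cr (crotonylation). The text places the H3K9bhb antibody in the Flag-ENL cells. For H3K9ac and H3K9cr the cells of origin, with or without Flag-ENL, are not given, nor is the level of Flag-ENL relative to the cells' own ENL. The peaks in the list labelled H3K9ac carry names that begin with ENL1, so the label rests on the sample title alone. There were no replicates, so differences between libraries have no check of that kind. Intervals are at the 95% level and reflect counting error alone. The 24 standard chromosomes held 11394 peaks of wild type ENL, 5422 of Y78A, 31493 of H3K9ac, 9176 of H3K9bhb and 3852 of H3K9cr. The median summit of a peak at a member end rested on 23, 21, 31, 22 and 23 fragments in that order, counts recovered from the deposited fold and p; total reads per library are unknown. Of 19 protein-coding hepatoma markers 14 had H3K9ac at an end, where 56.4% of all 20033 protein-coding genes did. ALB, AFP, FGB, SERPINA1 and TTR had no end peak in any list.

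lncRNAs are transcribed by RNA polymerase II, mostly from promoters of their own, and are usually less abundant than messenger RNAs. ENL, encoded by MLLT1, is a subunit of the super elongation complex and binds acylated lysines of histone H3 through its YEATS domain, in whose acyl-lysine pocket tyrosine 78 lies. Acetylation, crotonylation and β-hydroxybutyrylation of lysine 9 are all found at active promoters, and β-hydroxybutyrylation takes its acyl group from the ketone body β-hydroxybutyrate, which liver makes during fasting.

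The promoters of 6 members are shown as examples of the classes described below; no share or comparison depends on them. PURPL, a p53-induced lncRNA, and MIR222HG, the host gene of miR-221 and miR-222, had wild type ENL and no Y78A peak. DANCR, a lncRNA that holds cells in an undifferentiated state, SNHG5, a host of the small nucleolar RNAs SNORD50A and SNORD50B, and MALAT1, an abundant RNA of nuclear speckles, had both. LOC124904989 stands for 4 chromosome 21 members whose promoters are letter for letter the same. Each sequence runs 5′ to 3′ on the gene's strand from 250 bases before its annotated start to 50 after it, from the RefSeq table of GRCh38.p14. The windows are chr5:27472042-27472341 (plus strand) for PURPL, chrX:45770218-45770517 (minus) for MIR222HG, chr4:52712144-52712443 (plus) for DANCR, chr6:85678684-85678983 (minus) for SNHG5, chr11:65497488-65497787 (plus) for MALAT1 and chr21:7142275-7142574 (minus) for LOC124904989. Capitals mark exact matches on either strand. The TATA box was searched as TATAAA, the CCAAT box by the letters of its name, the GC box as GGGCGG, the ETS motif as CCGGAAGT, the E-box as CACGTG, the FOXA motif as TGTTTAC and the NRF1 motif by its palindromic core. Adjoining capitals in LOC124904989 are a CCAAT box and a GC box that overlap.
PURPL: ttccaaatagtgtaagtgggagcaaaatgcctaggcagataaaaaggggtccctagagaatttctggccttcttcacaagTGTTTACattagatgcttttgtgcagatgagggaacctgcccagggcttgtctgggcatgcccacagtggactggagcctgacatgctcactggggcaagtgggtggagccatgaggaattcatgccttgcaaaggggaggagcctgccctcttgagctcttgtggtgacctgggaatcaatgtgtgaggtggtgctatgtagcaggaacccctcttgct
MIR222HG: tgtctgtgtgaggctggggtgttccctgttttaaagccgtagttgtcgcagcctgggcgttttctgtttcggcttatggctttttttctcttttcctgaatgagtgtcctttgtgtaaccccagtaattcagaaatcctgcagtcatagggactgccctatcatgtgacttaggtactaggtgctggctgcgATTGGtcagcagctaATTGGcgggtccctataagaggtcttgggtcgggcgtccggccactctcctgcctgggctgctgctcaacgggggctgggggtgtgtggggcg
DANCR: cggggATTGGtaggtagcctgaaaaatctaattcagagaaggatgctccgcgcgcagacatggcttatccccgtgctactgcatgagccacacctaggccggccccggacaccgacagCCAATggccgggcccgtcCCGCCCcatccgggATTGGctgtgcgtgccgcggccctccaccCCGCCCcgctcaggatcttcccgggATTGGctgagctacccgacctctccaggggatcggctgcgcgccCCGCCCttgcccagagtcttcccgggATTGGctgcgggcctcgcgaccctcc
SNHG5: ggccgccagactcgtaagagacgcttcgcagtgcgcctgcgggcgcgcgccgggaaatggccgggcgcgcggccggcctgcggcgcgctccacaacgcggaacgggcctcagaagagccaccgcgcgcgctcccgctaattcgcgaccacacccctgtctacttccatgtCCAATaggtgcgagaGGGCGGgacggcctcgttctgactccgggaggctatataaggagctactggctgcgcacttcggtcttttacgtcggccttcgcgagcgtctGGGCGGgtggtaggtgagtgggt
MALAT1: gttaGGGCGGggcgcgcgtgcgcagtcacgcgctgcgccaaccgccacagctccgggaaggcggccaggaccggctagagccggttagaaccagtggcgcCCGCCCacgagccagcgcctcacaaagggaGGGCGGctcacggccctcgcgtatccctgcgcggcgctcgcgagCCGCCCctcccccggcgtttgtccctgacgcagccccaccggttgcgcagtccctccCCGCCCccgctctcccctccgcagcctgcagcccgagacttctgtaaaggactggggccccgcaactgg
LOC124904989: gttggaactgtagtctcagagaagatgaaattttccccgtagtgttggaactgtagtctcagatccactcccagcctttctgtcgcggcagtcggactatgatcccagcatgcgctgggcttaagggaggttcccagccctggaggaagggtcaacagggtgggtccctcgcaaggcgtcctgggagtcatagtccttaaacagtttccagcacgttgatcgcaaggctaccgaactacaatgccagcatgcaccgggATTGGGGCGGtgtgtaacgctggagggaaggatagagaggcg

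The PURPL window held a FOXA match and not 1 CG dinucleotide, giving an observed-to-expected CpG ratio of 0. The MIR222HG window held CCAAT boxes and had a ratio of 0.506. DANCR and SNHG5 held CCAAT and GC boxes with ratios of 0.798 and 1.20, and MALAT1 held GC boxes alone with 0.925. In all 24881 promoters of the table that start at the annotated gene end, 12.3% held the TATA letters, 36.1% CCAAT, 43.9% the GC box, 4.47% the ETS letters, 7.40% the E-box, 1.38% the NRF1 letters and 3.40% the FOXA letters. A match is a run of letters and not a measured binding site.

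Peaks were uncommon at lncRNA ends away from coding genes. Wild type ENL had a peak at 537 of the 14209 members (3.78%, interval 3.48 to 4.11), where 19.5% of all lncRNA and coding genes had one. Y78A reached 247 members (1.74%, interval 1.54 to 1.97; 9.94% of all genes), H3K9ac 1383 (9.73%, interval 9.26 to 10.2; 39.2%), H3K9bhb 404 (2.84%, interval 2.58 to 3.13; 16.2%) and H3K9cr 140 (0.985%, interval 0.836 to 1.16; 3.31%). At least 1 list reached 1488 members (10.5%), and all 5 lists reached 67 (0.472%, against 2.33% of all genes).

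lncRNA genes with an end within 2 kb of a coding gene end had shares close to those of coding genes. Their windows can overlap or adjoin those of the coding gene, so 1 peak can count for both and the closeness is in part built into the definition. Wild type ENL was found at 29.5% of those 4094 genes and at 28.6% of 20033 protein-coding genes. The member share lay 24.8 percentage points below the coding share (difference −24.8, interval −25.5 to −24.1). Against the 12765 coding genes that are themselves more than 2 kb from other coding ends, of which 21.5% had wild type ENL, the difference was −17.8 points (interval −18.5 to −17.0). H3K9bhb at 25.1% of the near lncRNA genes and 23.8% of the coding genes, and Y78A at 15.4% and 14.6%, gave the same order. With every list cut to its 3852 strongest peaks by p, the length of the shortest, the member share with wild type ENL was 1.34% and its difference from coding genes −10.5 points.

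**Figure D1:**
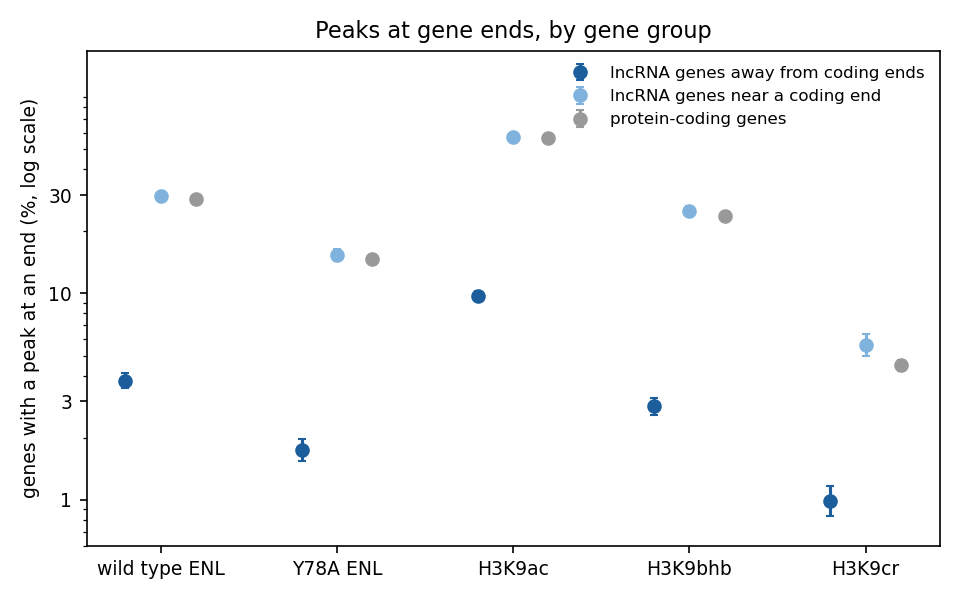
Share of genes with a peak at an end (percent, log scale) in each of the 5 peak lists, for lncRNA genes away from coding ends, lncRNA genes with an end within 2 kb of a coding end, and protein-coding genes. Points are shares and bars are 95% Wilson intervals; for wild type ENL the points are 3.78%, 29.5% and 28.6%, and lncRNA genes away from coding ends are lowest in all 5 lists.

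Inside the member set the share was lower at greater distance from coding genes. Wild type ENL was found at 6.07% of 1400 members lying 2 to 5 kb from the nearest coding end (interval 4.94 to 7.45), at 5.09% of 1415 at 5 to 10 kb, 4.88% of 4593 at 10 to 50 kb, 3.61% of 2104 at 50 to 100 kb and 1.70% of 4697 beyond 100 kb (interval 1.37 to 2.11). The first 3 of these intervals overlap one another, and the last lies below all the others. H3K9ac went from 18.3% to 3.60% between the nearest and the farthest group, and H3K9bhb from 5.57% to 1.24%. Y78A at wild type members showed no such order, with 42.4%, 44.4%, 47.8%, 32.9% and 42.5% from near to far. H3K9bhb among wild type members was 68.2% in the nearest group and 58.8% in the farthest, with overlapping intervals (57.7 to 77.2 and 47.8 to 68.9).

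**Figure D2:**
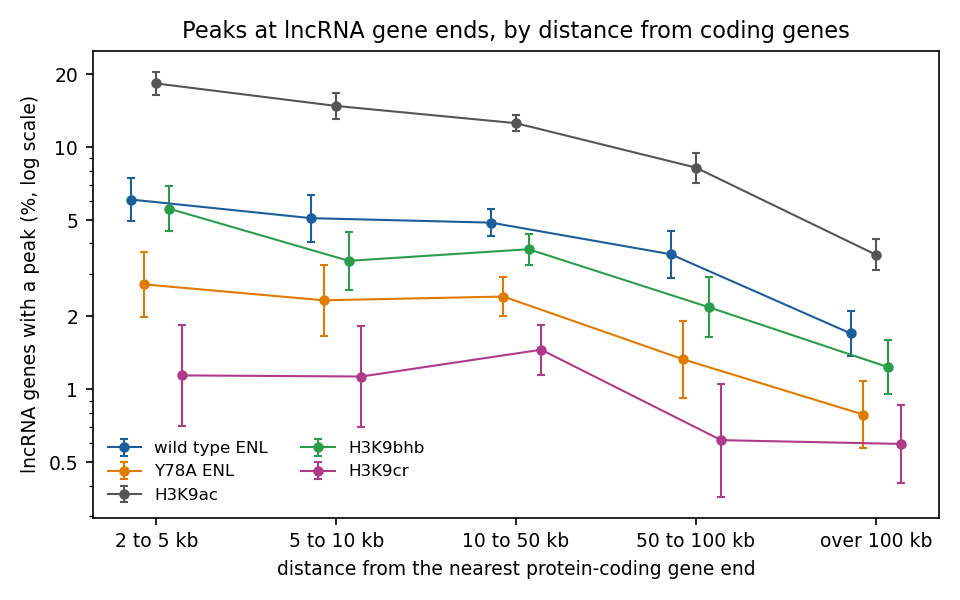
Share of lncRNA genes with a peak at an end (percent, log scale) against their distance from the nearest protein-coding gene end, 1 line per peak list, with 95% Wilson intervals. Wild type ENL goes from 6.07% at 2 to 5 kb to 1.70% beyond 100 kb, and H3K9ac from 18.3% to 3.60%.

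Overlap with a coding gene body went with a small difference. Of 4334 members inside or overlapping a coding gene body 4.68% had wild type ENL, against 3.38% of the 9875 outside. The share with Y78A among those wild type members was 41.9% and 44.6%, with intervals of 35.3 to 48.7 and 39.4 to 49.97. A coding transcript started within 1 kb of an end of 271 members, from an alternative start inside its gene, and 25.5% of these had wild type ENL. Without them the member share was 3.36% (468 of 13938).

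Annotation class separated the members further. Wild type ENL was found at 2.94% of 10215 members with a provisional LOC symbol, 4.68% of 2159 LINC genes, 6.34% of 1120 genes named as antisense to another gene and 8.90% of 517 genes with another symbol. Genes named as intronic or overlapping had it in 2 of 91 cases. Genes named as small RNA hosts reached 16.0% (12 of 75, interval 9.40 to 25.9) and those named as divergent transcripts 15.6% (5 of 32, interval 6.86 to 31.8). Members with a curated RefSeq transcript had wild type ENL in 5.49% of 4556 cases, and those with predicted transcripts alone in 2.97% of 9653.

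Peaks sat at the 5′ end. Strand and start were known for 8496 members; among the 7496 of these longer than 2 kb, wild type ENL was at the 5′ end of 272 (3.63%, interval 3.23 to 4.08) and at the 3′ end of 59 (0.787%, interval 0.611 to 1.01), 9 genes having both. Thus 84.5% of the members with wild type ENL had it at the 5′ end (interval 80.1 to 88.0), against 96.6% of coding genes measured the same way. It was 81.0% for Y78A, 85.5% for H3K9ac, 84.4% for H3K9bhb and 72.7% for H3K9cr. The summit nearest the 5′ end, searched within 5 kb, lay at a median of 8 bp into the gene for wild type ENL at members (quartiles −452 and 842.5 bp), with 45.8% of summits within 500 bp. At coding genes the median was −76 bp, and 79.8% lay within 500 bp. H3K9ac summits lay farther into the gene than wild type ENL summits at coding genes (medians 78 and −76 bp), while at members the medians were 57 and 8 bp.

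**Figure D3:**
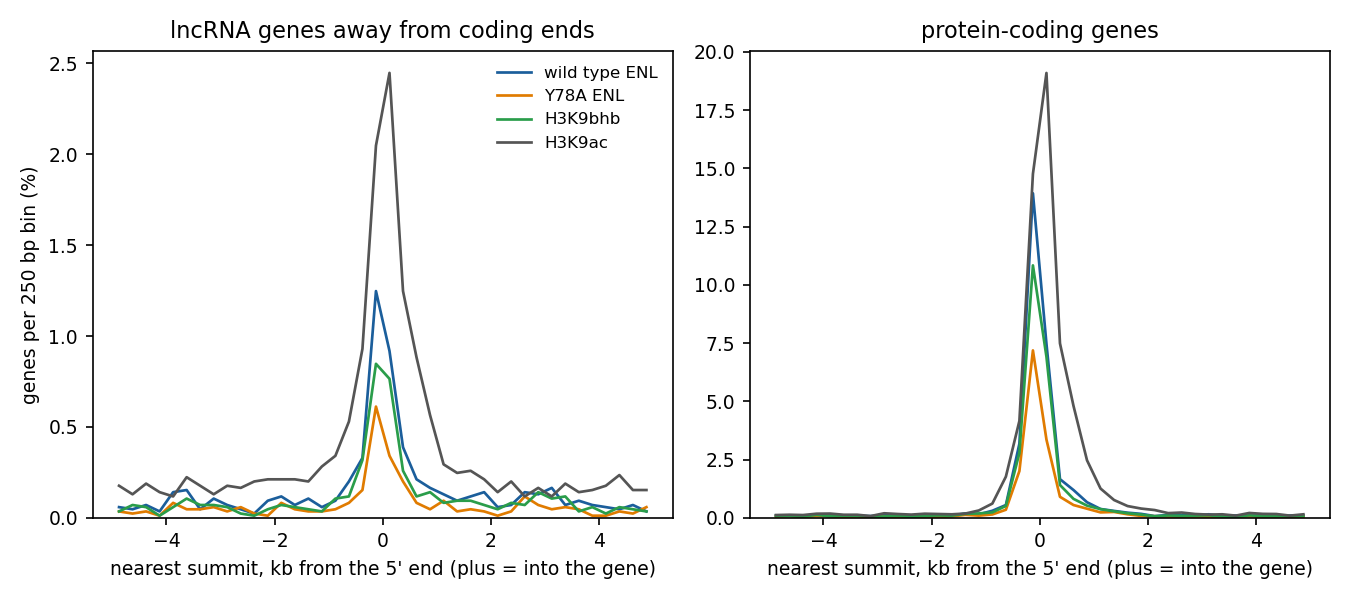
Position of the nearest peak summit relative to the annotated 5′ end, in kb along the gene's direction, as the percent of genes per 250 bp bin, for lncRNA genes away from coding ends (left) and protein-coding genes (right). The vertical scales differ; both groups peak at the start, and 45.8% of wild type ENL summits at lncRNA genes lie within 500 bp of it against 79.8% at coding genes.

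Promoter composition differed between members with and without ENL. A promoter was called CpG-rich when its GC content was at least 50% and its observed-to-expected CpG ratio at least 0.6. Of the 8160 members with a promoter sequence starting at the gene end, 10.8% were CpG-rich (interval 10.1 to 11.5), as were 63.8% of 13818 coding promoters. Among the 308 with wild type ENL at the 5′ end the share was 47.4% (interval 41.9 to 53.0), among 7335 with no 5′ peak 7.17%, and among 507 with H3K9ac and no wild type ENL 40.6% (interval 36.4 to 45.0). CpG-rich members had wild type ENL in 16.6% of 878 cases and other members in 2.22% of 7282. CpG-rich coding promoters had it in 42.3% of 8818 cases and other coding promoters in 9.78% of 5000, each above the member share of the same class. Members and coding genes were not matched within a class, and the part of composition in these differences was not tested. Of CpG-rich wild type ENL members 49.3% had Y78A and 63.0% H3K9bhb (intervals 41.3 to 57.3 and 54.9 to 70.4), against 50.2% and 73.0% of CpG-rich coding genes.

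The GC box and ETS, E-box and NRF1 letters were more frequent at members with wild type ENL than at those with no 5′ peak. TATA letters were rarer, and for none of these motifs did the intervals of the 2 groups overlap. CCAAT and FOXA letters were at similar shares. The ETS, E-box and NRF1 shares of members with H3K9ac and no wild type ENL had intervals overlapping those of wild type ENL members. The GC box was found in 46.8% of wild type ENL member promoters (interval 41.3 to 52.3), 11.6% of those with no 5′ peak and 75.4% of wild type ENL coding promoters. Members with H3K9ac and no wild type ENL held it in 44.8% of cases (interval 40.5 to 49.1), an interval that overlaps that of wild type ENL members. The CCAAT box stood at 35.1% of wild type ENL members, 36.9% of members with no 5′ peak and 45.0% of wild type ENL coding genes. TATA letters were rarer with wild type ENL (6.17%, interval 3.98 to 9.43) than with no 5′ peak (19.4%), and members with H3K9ac and no wild type ENL were again close to the former (8.28%, interval 6.19 to 11.0). FOXA letters, those of liver pioneer factors, were found in 5.52% of wild type ENL members, 5.22% of members with no 5′ peak and 2.06% of wild type ENL coding genes. These windows differ in base composition, and its part in the motif shares was not tested.

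Most members with wild type ENL also carried acetylation, but fewer than at coding genes. Here and below the lists were matched by gene. Peaks at opposite ends of a gene, or apart within 1 window, therefore count as together. H3K9ac was at 466 of the 537 (86.8%, interval 83.7 to 89.4), where 97.3% of all wild type ENL genes had it. H3K9bhb was at 320 (59.6%, interval 55.4 to 63.7; 71.1% of all) and H3K9cr at 98 (18.2%, interval 15.2 to 21.7; 15.2% of all). Set against coding genes alone the differences were −11.3 points for H3K9ac (interval −14.4 to −8.62), −11.8 for H3K9bhb (interval −16.1 to −7.53) and 3.82 for H3K9cr (interval 0.644 to 7.42). The H3K9cr difference was 2.79 points against coding genes away from other coding ends (interval −0.555 to 6.51) and 0.948 against the near lncRNA genes (interval −2.82 to 4.98), both intervals reaching 0. Members with none of the 3 marks numbered 44 of 537 (8.19%, interval 6.16 to 10.8), against 69 of 5732 coding genes (1.20%, interval 0.952 to 1.52). H3K9ac with H3K9bhb was the most frequent combination at members (210 genes), followed by H3K9ac alone (162), all 3 marks (84) and H3K9bhb alone (23).

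Counted from the marks, wild type ENL accompanied most H3K9bhb and H3K9cr members and a minority of H3K9ac members. Wild type ENL was at 33.7% of H3K9ac members (interval 31.2 to 36.2; 48.4% of all H3K9ac genes), at 79.2% of H3K9bhb members (interval 74.98 to 82.9; 85.7% of all H3K9bhb genes) and at 70.0% of H3K9cr members (interval 62.0 to 77.0; 89.4% of all H3K9cr genes). Each of the 3 member shares lay below that of coding genes, which was 49.7% for H3K9ac, 85.8% for H3K9bhb and 92.0% for H3K9cr. The H3K9ac list is the longest, so these shares do not rank the marks. Among the 1383 H3K9ac members, wild type ENL was found at 81.4% of the 361 that also had H3K9bhb and at 16.8% of the 1022 that did not, a difference of 64.6 points (interval 59.6 to 68.9). Coding genes gave 62.3 points for the same comparison (interval 60.8 to 63.7). For Y78A the shares were 52.1% and 3.91%. With and without H3K9cr, the shares of H3K9ac members with wild type ENL were 79.0% and 29.4%. Peak strength moves with these shares: H3K9bhb was found at 28.4% of wild type ENL members with the weakest peaks by p and at 87.7% with the strongest, of 4 equal groups of peaks, and the part of peak strength in the association of ENL with H3K9bhb was not tested.

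Fewer than 1 in 2 wild type ENL members were also in the Y78A list. Y78A had a peak at 234 of 537 (43.6%, interval 39.4 to 47.8), against 49.5% of all wild type ENL genes. Of the 247 Y78A members 234 had wild type ENL (94.7%, interval 91.2 to 96.9). Among coding genes with Y78A 97.2% had it (interval 96.6 to 97.8). The Y78A share of wild type ENL members lay 6.18 points under that of coding genes (difference −6.18, interval −10.5 to −1.76). Against coding genes away from other coding ends, however, the difference was −1.50 points (interval −6.03 to 3.12). The Y78A list is the shorter, and with every list cut to its 3852 strongest peaks the Y78A share was 66.8%. Wild type ENL peaks were divided at −log10 p of 8.71, 11.2 and 15.8 into 4 groups of equal size over the whole list. From weakest to strongest, Y78A was found at 8.62%, 20.3%, 51.0% and 86.2% of members and at 9.93%, 22.9%, 54.4% and 89.1% of coding genes. The intervals of members and coding genes overlapped in each group, and a smaller share of members than of coding genes fell in the strongest (25.7% against 31.8%). Absence from the Y78A list does not show absence of the Y78A protein.

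**Figure D4:**
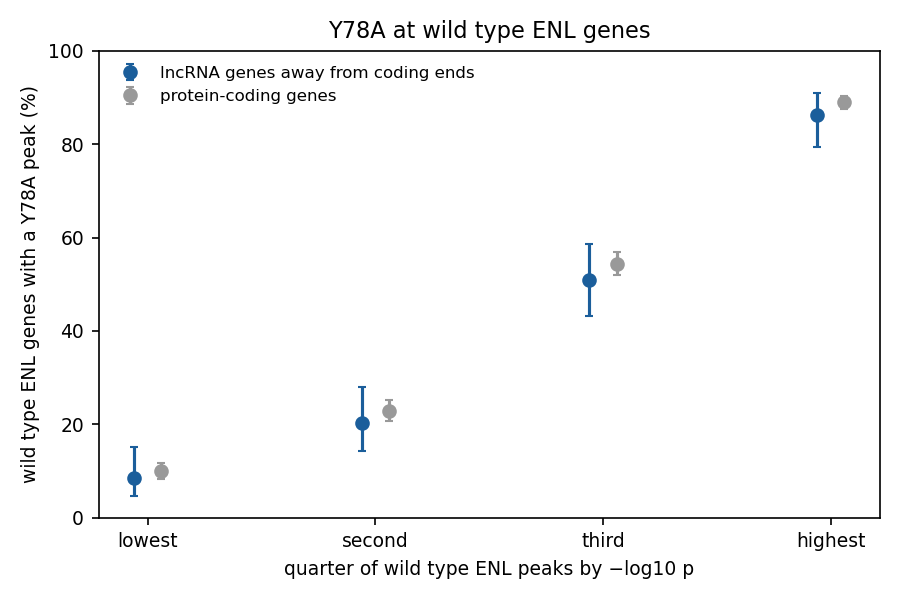
Share of wild type ENL genes with a Y78A peak at an end (percent), by 4 equal groups of wild type ENL peaks ranked on −log10 p, for lncRNA genes away from coding ends and protein-coding genes, with 95% Wilson intervals. The lncRNA shares are 8.62%, 20.3%, 51.0% and 86.2%, and each interval overlaps that of coding genes.

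The Y78A share of wild type ENL members also differed by mark. Y78A was at 61.3% of wild type ENL members with H3K9bhb and 17.5% of those without (difference 43.7 points, interval 35.9 to 50.6), at 46.8% with and 22.5% without H3K9ac, and at 72.4% with and 37.1% without H3K9cr. By combination it was at 79.8% of members with all 3 marks, 56.2% with H3K9ac and H3K9bhb, 19.1% with H3K9ac alone, 39.1% of 23 with H3K9bhb alone and 11.4% of 44 with no mark. The coding shares for all 3 marks, for H3K9ac with H3K9bhb and for H3K9ac alone were 83.0%, 56.9% and 19.1%. For H3K9bhb alone the coding share was 63.4% (26 of 41, interval 48.1 to 76.4), with a member interval of 22.2 to 59.2, and for no mark it was 14.5% (10 of 69). Both the Y78A share and the H3K9bhb share rose with wild type ENL peak strength, as given above. The part of peak strength in the differences by mark was not tested.

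PURPL and PINCR had the highest wild type ENL folds among members without Y78A. The values that follow are the authors' fold of the strongest peak at an end, each read within its own list. PURPL (chromosome 5, 27472292 to 27496401), 433706 bp from the nearest coding end, had a wild type ENL fold of 11.6 on 37 fragments over chr5:27472069-27472521, which spans the start printed above. It had an H3K9ac fold of 7.07, an H3K9bhb fold of 4.98 on 10 fragments, and no Y78A or H3K9cr peak. PINCR, another p53-induced lncRNA, on the X chromosome, had a fold of 8.36 on 27 fragments with H3K9ac (4.35) and neither H3K9bhb nor Y78A. MIR222HG had a fold of 7.72 on 17 fragments with H3K9ac (5.18) and H3K9bhb (6.79), all at its 5′ end. SVIL-AS1, antisense to the supervillin gene, and LOC105376474 shared 1 peak of fold 7.65, which covers the start of SVIL-AS1, with H3K9ac (4.18). The other leading members of this class were LOC100996756 (8.29), LINC01806 (7.85), LOC105370770 (7.80) and LOC124905339 (7.51). LOC105370770 and LOC124905339 had wild type ENL and no other peak. The choice by fold fixes that these lead, so no comparison rests on them.

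Among members in both ENL lists the highest folds were at LINC02564, LOC124906027 and LOC101930129. LINC02564 and LOC107985185 share a peak at chr18:9977-10597, at the start of the assembled chromosome, with a wild type ENL fold of 13.4, a Y78A fold of 14.9, an H3K9ac fold of 14.4, an H3K9bhb fold of 12.3 and an H3K9cr fold of 13.7. These were the highest member folds in each of the 5 lists. The peak ends before the LINC02564 start at 11560, and how reads with several matches were placed at this chromosome end is not known. LOC124906027 (12.4) on chromosome 2 and FAM230F (10.4), of a gene family in the segmental duplications of chromosome 22, were also in all 5 lists. FAM230F had folds of 10.1, 8.72, 7.60 and 11.4 in the Y78A, H3K9ac, H3K9bhb and H3K9cr lists. LOC101930129 (11.5) and LOC124900710 (9.99), whose end lies within 1 kb of a small nuclear RNA gene, followed. Among genes with names, FAM230J (8.57), FAM230E (8.49) and GPRC5D-AS1 (8.37) came next.

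The 4 identical promoters on chromosome 21 belong to LOC124904989, LOC124904991, LOC124904992 and LOC124904990, whose wild type ENL folds were 10.8, 9.91, 9.66 and 8.87. All 4 had Y78A, H3K9ac and H3K9bhb, and 3 had H3K9cr. With 0 differences over 300 bases, reads from these windows cannot be assigned to 1 copy, and how such reads were placed is not stated in the labels. Copied promoters, with at least 50% of their 31-base words in the promoter of another gene, made up 2.45% of members (200 of 8160) and 5.52% of wild type ENL members (interval 3.47 to 8.66). Among wild type ENL coding genes the share was 0.830% (interval 0.597 to 1.15). Wild type ENL members with a copied promoter were in all 5 lists in 41.2% of 17 cases (interval 21.6 to 64.0), and the others in 8.25% of 291 (interval 5.60 to 11.98). The 17 include the 4 identical copies above, so they are not 17 independent sequences. The intervals for copied promoters count copies of 1 sequence as separate cases, and no conclusion is drawn from the difference. Leaving out members with a copied promoter gave a wild type ENL share of 3.70%, a Y78A share of 43.2% and an H3K9bhb share of 59.2%.

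A few members had Y78A and no wild type ENL peak, 13 of the 247 with Y78A. Over all lncRNA and coding genes, 3704 of the 3809 with Y78A had wild type ENL. The strongest of the 13 members were LOC107987069 (6.08 on 29 fragments), LOC105375303 (6.05 on 16), LOC105372141 (5.75 on 13) and LOC124903318 (5.34 on 16), and each also had H3K9ac. Members with H3K9bhb and wild type ENL but not Y78A were led by TSHR-AS1, antisense to the thyrotropin receptor gene (H3K9bhb fold 8.01, wild type ENL 7.13, H3K9ac 7.87), LINC02513 (7.53), LOC105372036 (7.05) and LOC101060553 (6.81). H3K9bhb without H3K9ac was led by FAM230J (8.21) and FAM230H (7.53), then LOC105372036 and LOC105373514 (6.72). FAM230H had no peak in any other list. FAM230J and FAM230H belong to the duplicated family named above, and how reads with several matches were placed there is not known. H3K9cr without wild type ENL was led by LINC01829 (6.20), whose end carried no other peak, LOC102724363 (5.22), LOC124902181 (5.22) and LOC105379516 (4.89). H3K9ac alone was led by LOC101930100 (8.54), LINC01023 (7.86), LINC02542 (7.83) and CLDN10-AS1 (7.68).

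Wild type ENL peaks at member ends had a median fold and width close to those at coding genes. By p, however, a smaller share of members than of coding genes fell in the strongest group, as given above. The 507 distinct peaks, 4.45% of the list, had a median fold of 5.09 (quartiles 4.31 and 6.21) and a median width of 428 bp, against 5.19 and 447 bp at coding ends. H3K9ac peaks were narrower at members, with a median of 511 bp against 942 bp. Taking each gene's strongest peak, the widest wild type ENL peaks lay at LINC01132 (1524 bp, fold 3.74 on 83 fragments), UBE2D3-AS1 (1524 bp, 5.41), MIRLET7A1HG, a let-7 host gene (1248 bp, 6.89), and SLC25A28-DT (1207 bp, 6.90), and Y78A was present at all 4. UBE2D3-AS1 and SLC25A28-DT have a coding start within 1 kb of an end, as do LOC124900710, LOC101060553 and NRAV among the other named genes. At 43 peaks 1 peak served 2 members, so 86 of the 537 members shared theirs.

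The hand-made lists that follow were drawn up from well-known genes, with earlier results of these data known. The lists overlap, so genes such as FTX and MIAT count in more than 1 of them and their shares are not separate results. Most of their counts stand beside the shares over all members, over all lncRNA and coding genes, or both. Of 25 members on a list of small RNA hosts 12 had wild type ENL (48.0%, interval 30.03 to 66.5), against 3.78% of members, 19.5% of all genes and 16.0% of the 75 members named as hosts. Y78A was at 5 of the 25 (1.74% of members, 9.94% of all genes), H3K9ac at 17 (68.0%; 9.73% and 39.2%), H3K9bhb at 6 (24.0%; 2.84% and 16.2%) and H3K9cr at 4 (16.0%; 0.985% and 3.31%). SNHG5 (chromosome 6, 85677007 to 85678733) had folds of 6.59 (wild type ENL, 47 fragments), 5.39 (Y78A, 23 fragments), 4.00 (H3K9ac) and 5.60 (H3K9bhb), all over its 5′ end. DANCR (chromosome 4, 52712394 to 52720697) was in all 5 lists, with 6.24 on 29 fragments for wild type ENL and 5.50 on 18 for Y78A. DLEU2, the host of miR-15a and a neighbour of DLEU1 in a region deleted in chronic lymphocytic leukaemia, and MIRLET7A1HG were in all 5 as well. MIR17HG, host of an oncogenic microRNA cluster, had wild type ENL (5.48) and Y78A (5.01) in its 5′ window, as peaks that do not overlap each other, and no H3K9bhb peak. EPB41L4A-AS1, host of SNORA13, had wild type ENL (4.77) and H3K9bhb (6.16) and no Y78A. SNHG26 (5.16), SNHG32 (4.58), CYTOR (4.34), MIR4435-2HG (4.05) and MIR3142HG (3.74), host of miR-146a, had wild type ENL with H3K9ac and neither Y78A nor H3K9bhb. CYTOR and MIR4435-2HG are duplicates, with 78.1% of promoter words shared, and their values cannot be assigned to one or the other with certainty. H19, MIR100HG, MIR155HG and SNHG15 were among the hosts with no peak.

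Among 24 widely studied lncRNAs wild type ENL was at 15 (62.5%, interval 42.7 to 78.8; 3.78% of members, 19.5% of all genes). Y78A was at 7 (29.2%, against 1.74% of members and 9.94% of all genes) and H3K9ac at 17 (70.8%, against 9.73% and 39.2%). H3K9bhb was at 8 (33.3%, against 2.84% and 16.2%) and H3K9cr at 4 (16.7%, against 0.985% and 3.31%). MALAT1 had 109 wild type ENL fragments at its summit (fold 4.90) and 76 Y78A fragments (5.36), with H3K9ac (2.55), H3K9bhb (4.40) and H3K9cr (2.71) peaks over the same start. NEAT1, the scaffold of paraspeckles, had a wild type ENL fold of 1.97 on 122 fragments and no other peak. DLEU1 had wild type ENL (7.84), Y78A (7.15), H3K9ac (3.45) and H3K9bhb (5.21) at its 5′ end, and its H3K9cr peak lay at the 3′ end instead. CCAT1 (5.04), KCNQ1OT1 (5.33), the imprinted antisense RNA of KCNQ1, and NRAV (5.52), a regulator of the antiviral response, had both ENL forms. LINC00667 (6.49) had H3K9bhb and no Y78A. FIRRE (5.68), which helps to organise nuclear architecture, FTX (5.38), of the X-inactivation centre, LUCAT1 (3.80) and NORAD (3.66), which binds Pumilio proteins, had wild type ENL and H3K9ac alone. JPX, MIAT and PVT1 had H3K9ac alone, and MEG3, BCYRN1 and MIR31HG no peak.

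**Figure D5:**
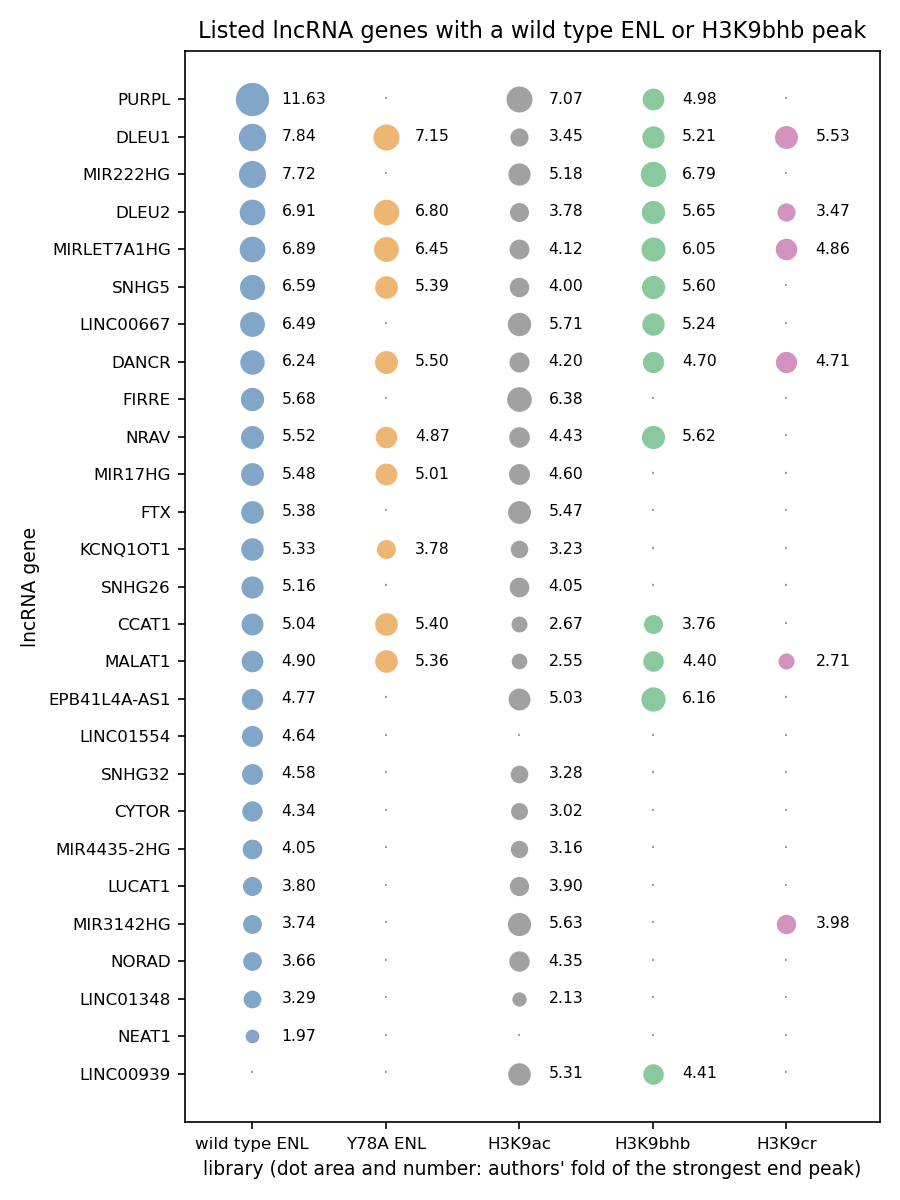
Authors' fold of the strongest end peak (dot area and number) in each of the 5 lists for the listed lncRNA genes with a wild type ENL or H3K9bhb peak, sorted by wild type ENL fold; a small grey point means no peak. PURPL leads at 11.6 with no Y78A peak, and NEAT1 is lowest among wild type ENL genes at 1.97; folds are comparable within a column.

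Too few liver lncRNAs were listed to place their ENL share above or below that of other members. Of 31 listed members 3 had wild type ENL (9.68%, interval 3.35 to 24.9, which holds the member share of 3.78% and the all-gene share of 19.5%), none had Y78A (0 of 31, which allows a share of up to 9.68%), 9 had H3K9ac (29.0%, against 9.73% of members) and 1 H3K9bhb. The 3 were FTX, LINC01348 (3.29) and LINC01554 (4.64), the last with no H3K9ac peak. HULC, raised in liver cancer, LINC00261, a neighbour of FOXA2, and MIR122HG, the host of the liver microRNA miR-122, had H3K9ac without ENL. LINC00939 had H3K9ac (5.31) and H3K9bhb (4.41) without ENL. Among 28 listed lncRNAs of other tissues none had wild type ENL, Y78A, H3K9bhb or H3K9cr (0 of 28 allows up to 10.7%, which is above the member share in each of these lists), and LINC00926 and MIAT had H3K9ac (7.14%, against 9.73% of members).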

How the data were processed

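Tagged DNA of 5 HepG2 libraries was sequenced and the authors deposited 1 list of peaks per library, with positions on hg38. Per the submitters' processing notes FastQC, Bowtie2, MACS2 and deepTools were used; their versions and settings, the background control and the handling of duplicates and of reads with several matches are not known here. The lists hold the authors' fold of the summit over background, −log10 p and −log10 q, a score that is 10 times the deposited −log10 q cut to a whole number, and other values deposited by the authors as positions in bp (start, end and summit). The lowest −log10 q was 2.05 in the wild type ENL, 2.04 in the Y78A, 1.31 in the H3K9ac, 2.02 in the H3K9bhb and 1.34 in the H3K9cr list, so thresholds differed between lists.

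Members, coding genes and the other lncRNA genes came from the RefSeq table of GRCh38.p14, and were given the same windows. Strand and promoter sequence came from RefSeq's promoter table, which matched 8496 of 14209 members by gene identifier; 8160 have their promoter start at the gene end. Shares carry 95% Wilson intervals and their differences Newcombe intervals; no test between libraries was made. Summit fragment counts were solved from the deposited fold and −log10 p and found for all 2711 peaks at member ends. Checked on simulated data, the recovery was right for 100% of 500 peaks, and window overlaps differed from a direct search at 0 of 500 genes. Python 3.11.15, numpy 2.4.6, pandas 2.3.3 and scipy 1.17.1 were used.

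The members, gene lists and the rule for named genes were chosen with earlier results of these data known. The rule took, by the authors' fold, the 8 highest wild type ENL members with and without Y78A, the 4 highest with a symbol other than LOC or LINC in each, the 4 highest of 5 further classes (Y78A without wild type ENL, H3K9bhb with wild type ENL and no Y78A, H3K9bhb without H3K9ac, H3K9cr without wild type ENL, H3K9ac alone), the 4 widest wild type ENL peaks and each listed gene with a wild type ENL or H3K9bhb peak. Genes named beyond it were chosen after their values were seen. The lists held 54 small RNA hosts, 51 widely studied lncRNAs, 47 liver lncRNAs and 42 lncRNAs of other tissues, of which 54, 49, 40 and 37 matched RefSeq lncRNA symbols. Alternatives were other window sizes, margins and peak thresholds, lists of equal length, loci in place of genes, and 3 added after seeing the data.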

Additional observations from a re-analysis of the deposited data

How the results depend on the processing

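No paired analysis was possible because each group has 1 library, and no library could be left out. Each of 6 results was recomputed under 11 alternatives; of the 66 values none changed direction and 49 stayed within the interval of the reported value. The member share with wild type ENL, 3.78%, became 3.08% with windows of 500 bp, 5.41% with 2500 bp, 3.34% beyond 10 kb from coding ends, 3.38% outside coding gene bodies, 3.22% at −log10 q of at least 5, 1.34% with lists cut to the 3852 strongest peaks, and 3.36% without members near an alternative coding start. Its difference from coding genes, −24.8 points, became −23.7 with 500 bp, −25.9 with 2500 bp, −21.2 at −log10 q of at least 5, −10.5 with equal lists, −23.9 over joined loci and −25.8 at 5′ ends alone. The Y78A share of 43.6% became 38.5% at −log10 q of at least 5 and 66.8% with equal lists. The H3K9bhb share of 59.6% became 54.3% at −log10 q of at least 5, and the 64.6-point difference by H3K9bhb among H3K9ac members became 55.7 with equal lists. The difference in Y78A share between members and coding genes ranged from −8.14 to −3.43, and its interval reached 0 outside gene bodies, over loci and with equal lists. Equal lists hold the strongest peaks alone, and at −log10 q of at least 5 the lists shrink to 9186 wild type ENL, 4294 Y78A and 6819 H3K9bhb peaks; the cause of the other changes was not tested. Total reads are unknown, so a member without a peak may lie below what a library could call.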

Other observations

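Members beside other small genes were examined separately. An end of 12 members lies within 1 kb of a small nuclear RNA gene, and 7 of them had wild type ENL (58.3%, interval 32.0 to 80.7), where 3.78% of all members did. These were LOC124903859 beside RNU1-4, a U1 gene (5.36), LOC105379574 beside variant U1 genes (6.01), LINC01719 beside RNVU1-6 (5.86), CLASP1-AS1 beside RNU4ATAC, of the minor spliceosome (4.19), LOC112268274 (6.15), LOC124900710 (9.99) and LOC105371785 (3.91). Y78A was also at 5 of these 7, and LOC105374852, beside RNU2-63P, had Y78A (3.92) without wild type ENL. Peaks this close cannot be assigned to the lncRNA or to the small nuclear RNA gene. For LOC124900710 a coding transcript also starts within 1 kb of an end.

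Of 26 members beside a small nucleolar RNA gene 4 had wild type ENL, namely DANCR, EPB41L4A-AS1, SNHG32 and SNHG5, and of 72 beside a microRNA gene 9 did, among them MIRLET7IHG (5.63) and MIR663AHG (5.22). MIR133A1HG, host of a muscle microRNA, and MIR142HG, host of a blood cell microRNA, had no peak in any list. At least 1 list reached only 10.5% of all members, so the lack of a peak is common. Of 42 members beside a transfer RNA gene 2 had wild type ENL, and of 527 beside a pseudogene 44 (8.35%, interval 6.28 to 11.0). Each of these counts stands beside 3.78% of all members and 19.5% of all lncRNA and coding genes. The counts of 4, 9 and 2 are small, and no difference from those shares is drawn from them.

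By chromosome, the member share with wild type ENL had a median of 3.77%. It was highest on chromosome 19 (7.64%, 21 of 275, interval 5.05 to 11.4) and chromosome 21 (7.33%, 20 of 273), the latter counting the 4 copies described above. Short members had wild type ENL more often than long ones, with 4.98% in the shortest of 4 equal groups by gene length (interval 4.31 to 5.75) and 3.26% in the longest (interval 2.73 to 3.90).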
